A study of Mus musculus with 5 samples.

Results

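Glutathione transferases in the ileal epithelium were followed here as 8 named genes, Gsta1, Gsta4, Gstm1, Gstm3, Gstp1, Gstk1, Mgst1 and Mgst3, matched by symbol among the 27998 genes of the deposited gene table. All 8 were detected in each of the 5 libraries. The libraries hold droplet single-cell RNA profiles of epithelial cells from the ileum, the distal part of the small intestine, of C57BL/6 mice aged 8 to 12 weeks. Sham surgery gave 3 libraries and small bowel resection, in which a length of intestine is removed, gave 2. All animals were of this background strain, and the labels name no transgene or drug. The labels do not give the time after surgery or the number of animals per library, so p-values below measure the spread between these libraries, which may be technical. The question was which members of the family differ between epithelial cell classes, and which differ between resection and sham.

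Glutathione transferases join glutathione, a small thiol peptide made in the cytosol, to electrophilic compounds such as dietary toxins and products of lipid peroxidation, and the conjugates are then pumped out of the cell. The alpha (Gsta), mu (Gstm) and pi (Gstp) enzymes are soluble and cytosolic, the kappa enzyme (Gstk1) sits in mitochondria and peroxisomes, and the microsomal enzymes (Mgst) are a separate family embedded in membranes. In the small intestine they form part of the first defence against ingested electrophiles, and many of their genes are targets of the transcription factor Nrf2 through antioxidant response elements.

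The alpha genes lie on chromosome 9 (GRCm38, GENCODE M21 annotation), Gsta4 at chr9:78182774-78209349, plus strand, and Gsta1 at chr9:78230656-78242684, plus strand. The mu genes lie on chromosome 3, Gstm3 at chr3:107963696-107969283, minus strand, and Gstm1 at chr3:108012255-108017973, minus strand. Gstk1 (chr6:42245935-42250447, plus strand) and Mgst1 (chr6:138140316-138156755, plus strand) share chromosome 6, and Mgst3 lies at chr1:167371966-167393841, minus strand. Gstp1 (chr19:4035407-4037985, minus strand) stands beside its near copy Gstp2 (chr19:4040285-4046023, minus strand). Because the assay reads the 3' end of transcripts, 90-base windows over the last 500 transcript bases were compared with all other annotated transcripts. Of these windows, 68.1% in Gstp1 also occur in Gstp2 or the pseudogene Gstp-ps, and 77.9% in Gsta1 also occur in Gsta2 or Gm3776, while the other 6 members share none. Reads from such windows cannot be assigned with certainty, so Gstp1 and Gsta1 counts are uncertain to that extent.

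The stretches upstream of the RefSeq starts of Gstp1 and Gstp2 are shown because these neighbours had similar patterns between the surgery groups (below). These starts differ from the GENCODE gene bounds given above. The Gstp2 stretch lies inside the GENCODE gene, and the motif at the end of the Gstp1 stretch overlaps the GENCODE start. Each runs 5′ to 3′ on the minus strand from 250 bases before the RefSeq start site (GRCm38.p6) to the end of a shared motif in capitals.
Gstp1 (chr19:4037978-4038162): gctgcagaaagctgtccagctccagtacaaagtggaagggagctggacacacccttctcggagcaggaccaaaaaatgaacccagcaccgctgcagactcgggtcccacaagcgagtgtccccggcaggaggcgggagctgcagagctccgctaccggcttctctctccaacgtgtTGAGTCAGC
Gstp2 (chr19:4042302-4042471): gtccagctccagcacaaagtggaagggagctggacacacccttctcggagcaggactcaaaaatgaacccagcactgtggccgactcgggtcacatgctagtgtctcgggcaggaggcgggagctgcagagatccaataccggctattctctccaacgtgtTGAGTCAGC
The capitals TGAGTCAGC hold the letters TGAGTCA, the classical AP-1 site, overlapping TGANNNNGC, a relaxed form of the antioxidant response element core. TGAGTCA starts 74 bases before the RefSeq start of Gstp1 and 89 bases before that of Gstp2. Over windows from 250 bases before to 50 bases after the start, the pair of promoters matched at 76.6% of 316 aligned columns. On either strand, TGAGTCA occurs in 5.20% and TGANNNNGC in 41.3% of 32851 RefSeq promoter windows of this length. Promoter windows were matched for 7 of the 8 members, and among them TGAGTCA was found in Gstp1 alone, while TGANNNNGC was also found in Gsta1, Gstm3 and 1 of the windows of Mgst1. A match describes the letters in this window and was not tested as a binding site.

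After filters 18235 cells remained, between 1283 (sham 1) and 6701 (resection 2) per library, from totals of 11749028 to 41281731 UMIs (unique molecule counts). Clusters were named from marker genes as enterocyte-like (696 to 4529 cells per library), immature enterocyte-like (237 to 897), cycling-like (66 to 345), goblet-like (31 to 200), Paneth-like (121 to 267), stem-like (0 to 218) and T cell-like (31 to 245). Libraries sham 1 and resection 1 stood apart from the other 3: their immature enterocyte-like, cycling-like and Paneth-like cells formed clusters of their own, and their median mitochondrial share was 13.7% and 11.7% against 7.24% to 9.19%. Enterocyte-like cells also fell into clusters that were mostly of 1 library, with an overlap of cluster composition of 28.4% to 44.2% between sham 2, sham 3 and resection 2 and of 2.49% to 3.23% for pairs with sham 1 or resection 1. Any 2 libraries shared 6 to 47 cell barcodes, at most 1.5% of the smaller library. The T cell-like droplets serve below as a gauge of epithelial RNA outside its cells. They summed 6933 to 14276 CPM (UMI counts scaled to a fixed total) of T cell markers, none at 0, but also 38379 to 79444 CPM of the 12 enterocyte markers, against 60620 to 108246 CPM in enterocyte-like cells, 29213 to 71376 CPM in goblet-like and 3951 to 21920 CPM in Paneth-like cells.

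The 2 microsomal genes Mgst1 and Mgst3 gave 82.5% to 87.9% of the UMIs of the 8 members in each library. This is a share of 3' molecule counts, which are not divided by transcript length. On a scale shared by all classes (TMM-scaled CPM), Mgst1 ranged over the 5 libraries from 313 to 768 CPM in enterocyte-like and 309 to 892 CPM in immature enterocyte-like cells. It ranged from 189 to 495 CPM in cycling-like, 158 to 475 CPM in goblet-like and 86.8 to 304 CPM in Paneth-like cells. Mgst3 ranged from 393 to 1053 CPM in enterocyte-like cells to 186 to 373 CPM in cycling-like cells. For both genes, sham 1 and resection 1 were the lowest libraries in the enterocyte-like, immature enterocyte-like, cycling-like, goblet-like and Paneth-like classes, and T cell-like droplets held 205 to 574 CPM of Mgst1 and 267 to 669 CPM of Mgst3.

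**Figure D1:**
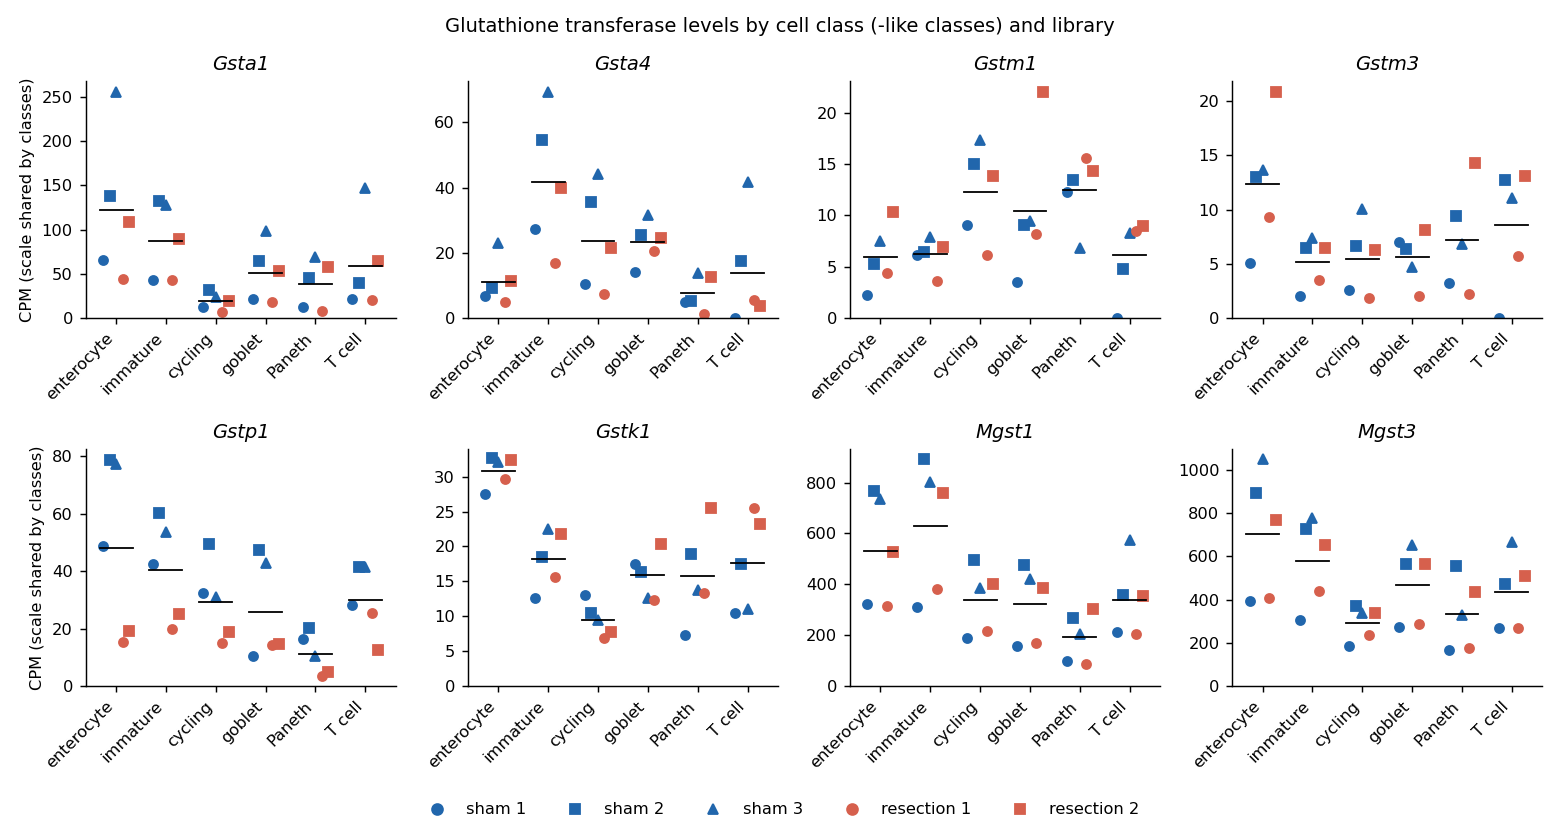
Level of each of the 8 genes (CPM, TMM-scaled over all sums, linear axis from 0, 1 panel per gene) in the 6 classes with at least 20 cells in every library. Each point is 1 library, blue for sham and red for resection, and the bar is the mean of the 5 libraries. Gsta4 is highest in the immature class, Gstk1 in enterocytes with little spread, and the red Gstp1 points lie under the blue ones in the enterocyte, immature and cycling classes.

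Gsta4, the alpha enzyme known for its activity towards hydroxynonenal, a product of lipid peroxidation, was the member with the clearest peak in immature cells. In immature enterocyte-like cells its level was 27.3, 54.5 and 69.2 CPM in sham 1, 2 and 3 and 16.9 and 40.0 CPM in resection 1 and 2. In enterocyte-like cells it was 6.87, 9.37 and 22.9 CPM in sham 1, 2 and 3 and 4.84 and 11.3 CPM in resection 1 and 2. Within each of the 5 libraries the immature cells were higher, with a log2 fold change of 1.92 ± 0.15, adjusted p = 2.44e-15 (edgeR quasi-likelihood test with library as a block). Gsta4 was also higher in cycling-like cells (1.07 ± 0.17, adjusted p = 4.02e-07) and in goblet-like cells (1.06 ± 0.25, adjusted p = 0.000587), in 5 of 5 libraries each. In Paneth-like cells it ranged from 1.11 to 13.7 CPM and in T cell-like droplets from 0.00 to 41.6 CPM. Its enterocyte-like level exceeded the T cell-like one in 2 of 5 libraries and its immature level in 5 of 5.

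Gsta1, the other alpha enzyme, was ordered differently. Its level was 65.3, 138 and 256 CPM in sham 1, 2 and 3 and 44.1 and 109 CPM in resection 1 and 2 in enterocyte-like cells and 13.0, 31.6 and 23.4 CPM in sham 1, 2 and 3 and 6.84 and 19.8 CPM in resection 1 and 2 in cycling-like cells. The cycling-like cells were lower in 5 of 5 libraries (-2.72 ± 0.17, adjusted p = 1.1e-18). The step from enterocyte-like to immature enterocyte-like cells was smaller (-0.38 ± 0.13, adjusted p = 0.00887) and did not pass under RLE scaling, DESeq2, unscaled totals or without sham 1 or sham 3, where it lay between -0.33 and -0.04. Gstk1, the kappa enzyme, had the narrowest spread in enterocyte-like cells, 27.5 to 32.7 CPM over the 5 libraries, and was lower in each of the other 5 classes in 5 of 5 libraries. It fell to 6.84 to 13.0 CPM in cycling-like cells (-1.86 ± 0.15, adjusted p = 3.19e-15) and to 12.6 to 22.5 CPM in immature enterocyte-like cells (-0.75 ± 0.11, adjusted p = 1.16e-07).

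The mu enzymes went in opposite directions between these classes. Gstm1 was higher in cycling-like cells, 6.14 to 17.4 against 2.22 to 10.4 CPM in enterocyte-like cells (0.93 ± 0.19, adjusted p = 3.61e-05), whereas Gstm3 was lower there, 1.89 to 10.0 against 5.05 to 20.8 CPM (-1.24 ± 0.19, adjusted p = 2.12e-07). Gstm3 was lower in immature enterocyte-like cells too (-1.28 ± 0.16, adjusted p = 4.86e-09), where Gstm1 ranged from 3.65 to 7.94 CPM and did not pass. Gstm1 was the member with a higher TMM-scaled level in Paneth-like cells (1.26 ± 0.29, adjusted p = 0.00037), but this turned to -0.77 on library totals without TMM. Gstp1, the pi enzyme, had 48.7, 78.8 and 77.4 CPM in sham 1, 2 and 3 and 15.5 and 19.2 CPM in resection 1 and 2 in enterocyte-like cells on this scale, and its means in enterocyte-like and immature enterocyte-like cells (47.9 and 40.3 CPM) were closer than the spread over libraries. It was lower in Paneth-like cells, at 3.34 to 20.2 CPM (-1.89 ± 0.24, adjusted p = 6.75e-09).

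Counted by class against enterocyte-like cells, immature enterocyte-like cells had 1 member higher and 3 lower of 8, beside 33.2% of 9942 tested genes higher and 33.7% lower. In cycling-like cells 2 were higher and 6 lower (all genes 38.3% and 40.0%), in goblet-like cells 2 and 6 (19.2% and 19.6%), in Paneth-like cells 1 and 6 (24.9% and 26.5%), and in T cell-like droplets 0 and 5 (19.4% and 17.9%; DESeq2 called 0 and 4, and 0 members were higher at an unadjusted p under 0.05). These splits rest on TMM scaling. On library totals the median log2 fold change of all genes was 0.33, 0.48, 0.20, -2.09 and 0.15 in the same order of classes, against 0.00, -0.05, 0.00, -0.01 and 0.00 with TMM. The members called higher and lower then numbered 2 and 2, 2 and 4, 2 and 4, 0 and 8, and 0 and 3. Mgst1 was called higher in immature enterocyte-like cells on library totals (0.55), under RLE scaling (0.36) and by DESeq2 (0.36), but not with TMM (0.22). The genes called higher and lower then numbered 4811 and 1932 (with TMM 3303 and 3354), 5254 and 2414 (3806 and 3979), 2413 and 847 (1905 and 1950), 373 and 8640 (2476 and 2632), and 2173 and 731 (1928 and 1781). In cycling-like cells RLE scaling gave 4554 and 3130 and DESeq2 4508 and 3057, and in Paneth-like cells DESeq2 gave 3023 and 2057. Of the members with TMM, Gsta1, Gstp1, Mgst1 and Mgst3 were lower in goblet-like and in Paneth-like cells. In Paneth-like cells they exceeded the T cell-like droplets in few libraries, in 1, 0, 0 and 1 of 5. In goblet-like cells they did so in 1, 3, 2 and 4 of 5. Cycling-like cells exceeded the droplets in 0 of 5 libraries for Gsta1 and Mgst3, in 1 for Gstk1 and Gstm3, in 3 for Gstp1 and Mgst1, in 4 for Gstm1 and in 5 for Gsta4. Immature enterocyte-like cells exceeded them in 1 of 5 libraries for Gstm3, 2 for Gstm1 and 3 for Gstk1, and in 4 or 5 for the other 5 members. Values at or under the T cell-like level, those of Gsta1, Mgst3, Gstk1 and Gstm3 in cycling-like cells among them, were not distinguished from background by this gauge. The enterocyte markers summed to 5495 to 12406 CPM in cycling-like and 11238 to 19018 CPM in immature enterocyte-like cells. In the T cell-like droplets they summed to 38379 to 79444 CPM. The droplets therefore cannot settle how much of these values is background and how much is expression in those cells.

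Stem-like cells numbered 0 in sham 1, so they were compared in the clustering scaled within each library. There Gsta4 was 17.0, 53.2 and 62.4 CPM in sham 1, 2 and 3 and 5.16 and 28.0 CPM in resection 1 and 2 (plain CPM without TMM), and Gsta1 was 17.0, 36.3 and 16.2 CPM in sham 1, 2 and 3 and 6.88 and 14.4 CPM in resection 1 and 2. The fold of Gsta1 against enterocyte-like cells was -3.59 ± 0.24, adjusted p = 2.98e-18, and that of Gsta4 0.96 ± 0.22, adjusted p = 0.000162. Gsta1 was lower in stem-like than in enterocyte-like cells in 5 of 5 libraries. Gsta4 was higher in 4 of 5, and in resection 1 it was lower, at 5.16 against 6.73 CPM. The stem-like sums were small, with 117967 UMIs from 21 cells in sham 1 and 581632 UMIs from 90 cells in resection 1. Levels of a few CPM there rest on few UMIs. These stem-like levels were not set against T cell-like droplets.

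Between resection and sham, Gstp1 had the widest separation of the 8 genes. In enterocyte-like cells, on a TMM scale within that class, its level was 53.3, 86.4 and 84.8 CPM in sham 1, 2 and 3 and 16.7 and 21.0 CPM in resection 1 and 2. The resection libraries lay together and well under the lowest sham library. The means were 74.9 ± 18.6 CPM in sham (SD, n = 3) and 18.9 ± 3.09 CPM in resection (SD, n = 2), which is a ratio of 3.97. The counts behind them were 241, 875 and 916 UMIs in sham and 240 and 451 in resection. In edgeR's quasi-likelihood test the log2 fold change was -1.99 ± 0.32 with an unadjusted p of 0.000323 and a Benjamini-Hochberg adjusted p of 0.279, which misses 0.05. It ranked 12th by p among 10367 genes and 1st among those lower.

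In that test no gene was called (0.0% of 10367, with 522 at an unadjusted p under 0.05), and DESeq2 called 72 genes. Among the 8 members edgeR called 0, and Gstp1 was the 1 member under 0.05 unadjusted and the 1 called by DESeq2 (adjusted p = 9.79e-06). A further fit had a term for the library set, which separates sham 1 and resection 1 from the rest. The labels name no such set, and it follows how the libraries stood apart in these same data. In enterocyte-like cells sham 1 and resection 1 overlapped by only 3.20% in cluster composition. With this term edgeR called 11 genes (0.106%), of which 1 was lower (0.00965%), and this was Gstp1 (-1.88 with an adjusted p of 0.0291). Both resection libraries lay under every sham library for 8.02% of all tested genes and for 1 member, Gstp1. Within the sets the difference of log2(CPM + 1) was -1.62 between resection 1 and sham 1 and -1.97 between resection 2 and the mean of sham 2 and sham 3. Leaving out each library in turn gave -2.18 to -1.83, and leaving out both sham 1 and resection 1 gave -2.02 with an adjusted p of 0.113. On library totals without TMM the median of all genes moved from -0.03 to 0.15 in all epithelial cells and from 0.00 to 0.14 in Paneth-like cells, and by less than 0.1 in the other fits.

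Both resection libraries were also under every sham library for Gstp1 in immature enterocyte-like and cycling-like cells. In immature enterocyte-like cells Gstp1 was 57.0, 85.1 and 75.2 CPM in sham 1, 2 and 3 and 26.5 and 35.3 CPM in resection 1 and 2, with a fold change of -1.24 ± 0.28, adjusted p = 1 (unadjusted p = 0.00272). The ranges did not overlap, as for 4.84% of 9765 genes. With the library set as a term it was -1.15 with an adjusted p of 0.0474, 1 of 5 genes called (0.0512%) and 1 of 2 lower (0.0205%). In cycling-like cells the level was 50.6, 80.3 and 50.1 CPM in sham 1, 2 and 3 and 22.8 and 29.9 CPM in resection 1 and 2 (-1.20 ± 0.32, adjusted p = 1). There Gstk1 was the other member with both resection libraries under every sham library, at 20.2, 17.1 and 15.3 CPM in sham 1, 2 and 3 and 10.5 and 12.4 CPM in resection 1 and 2, beside 4.93% of all genes.

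In goblet-like cells the groups overlapped for Gstp1, since sham 1, with 3 UMIs, lay below both resection libraries: 14.5, 60.2 and 56.3 CPM in sham 1, 2 and 3 and 19.3 and 18.5 CPM in resection 1 and 2 (-1.39 ± 0.45, adjusted p = 0.79). No member separated there, against 7.4% of genes that lay lower in both resection libraries. In Paneth-like cells Gstp1 was close to its floor, at 3 to 20 UMIs per library, with -2.02 ± 0.67, adjusted p = 1. Both resection libraries lay under sham for it (6.24% of genes), and both lay above sham for Gstm1 (7.1% of genes), at 2 to 15 UMIs per library. Over all epithelial cells Gstp1 was 42.3, 71.7 and 61.8 CPM in sham 1, 2 and 3 and 16.4 and 20.9 CPM in resection 1 and 2 (-1.66 ± 0.31, adjusted p = 0.647), and the ranges did not overlap, as for 6.22% of genes. In each of these 5 further fits edgeR called 0 members, with Gstp1 the 1 member under 0.05 unadjusted. The low-count filter kept 8 members in 3 of the fits, 6 in goblet-like cells (not Gstm1 or Gstm3) and 7 in Paneth-like cells (not Gstm3). The test called 0 genes in immature enterocyte-like, cycling-like and all epithelial cells (0.0%, with 143, 144 and 328 under 0.05 unadjusted), 6 genes in goblet-like (0.11%) and 2 in Paneth-like cells (0.032%). DESeq2 called 1, 2, 34, 6 and 6 genes in the same order, with Gstp1 among them in all epithelial cells.

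Gstp1 was also compared in stem-like cells. In the clustering scaled within libraries it was 59.3, 82.2 and 52.7 CPM in sham 1, 2 and 3 and 27.5 and 16.2 CPM in resection 1 and 2 (plain CPM without TMM). The fold change was -1.65 ± 0.40, adjusted p = 1 (0 of 5 tested members and 0.0% of 6237 genes called, with 96 genes under 0.05 unadjusted, Gstp1 and Gsta4 among them; DESeq2 was not run on this clustering). Without sham 1, which held no stem-like cells in the main clustering, it was -1.91 ± 0.45, adjusted p = 0.238 (0 of 7 tested members called, beside 0.0306% of 6544 genes).

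**Figure D2:**
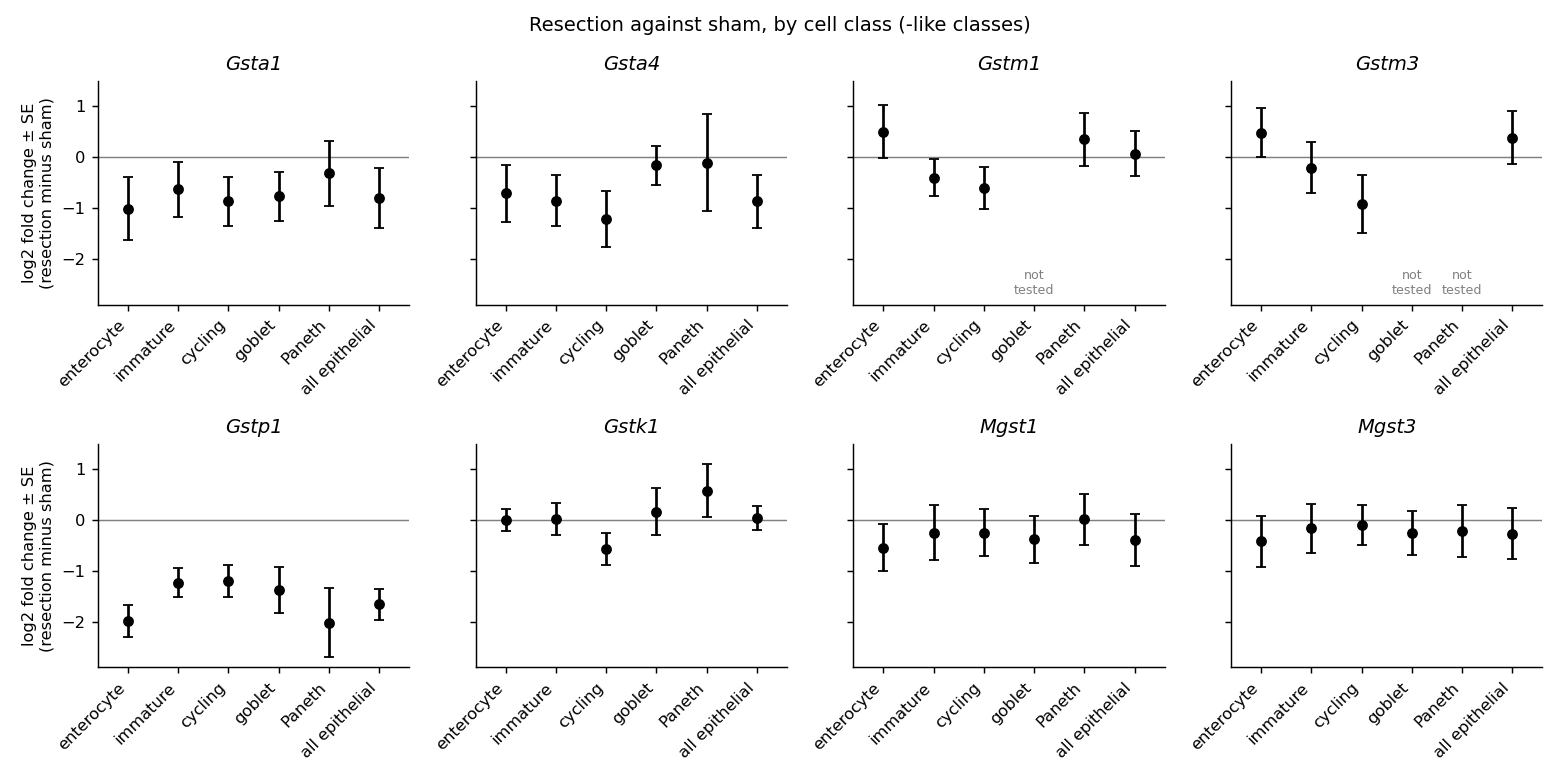
Log2 fold change of resection minus sham from edgeR, with its standard error, for each gene (panels) in 5 classes and in all epithelial cells together, on a shared linear axis. Gstp1 lies between -1.20 and -2.02 in the 6 fits, while the Gstk1 and Mgst3 points lie within 0.6 of 0. No point passed an adjusted p of 0.05.

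Because classes were made of clusters that differ between libraries, Gstp1 was also read inside single clusters with at least 50 cells of a library, as plain CPM without TMM and with no test. In the ileal enterocyte-like cluster led by Fabp6, a bile acid binding protein, it was 102 and 101 in sham 2 and 3 and 22.5 in resection 2. In the cluster led by Areg, an epidermal growth factor family ligand, it was 88.9 and 74.7 against 30.04. In the cluster led by Ada, a villus tip gene, it was 31.4 in sham 2 and 10.1 in resection 2. In immature enterocyte-like clusters it was 75.1 and 69.2 against 32.1, and 67.4 in sham 1 against 29.9 in resection 1. In each of these clusters the resection library was the lower one. T cell-like droplets, which hold epithelial RNA, gave 38.5, 42.6 and 53.0 CPM in sham 1, 2 and 3 and 37.4 and 14.0 CPM in resection 1 and 2, so resection 1 was close to sham 1 there and resection 2 was low.

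The share of cells with a Gstp1 UMI went the same way. With every cell thinned to 2000 UMIs, 11.6%, 13.1% and 15.2% of enterocyte-like cells had a UMI in sham 1, 2 and 3. In resection 1 and 2 the share was 3.41% and 3.58%. The exact 95% binomial intervals were 9.35% to 14.3% for sham 1, the lowest sham library, and 3.06% to 4.16% for resection 2, and cover counting error only. No cell was shallower than 2000 UMIs. Unthinned, the shares were 27.4%, 27.7% and 40.3% against 9.36% and 9.19%. In T cell-like droplets, with 31 to 245 cells, the thinned shares were 6.25%, 9.65% and 10.0% in sham and 6.45% and 2.86% in resection. Median depth was 4204 to 6805 UMIs per T cell-like droplet and 4135 to 5880 per enterocyte-like cell. The exact intervals of these few droplets included the enterocyte-like share of the same library in all 5 libraries. These wide intervals did not separate the share from background in sham or in resection. In summed counts Gstp1 was lower in the droplets than in enterocyte-like cells in 4 of 5 libraries (-0.67 ± 0.21, adjusted p = 0.00934, edgeR with library as a block). In resection 1 it was higher in the droplets, at 25.6 against 15.5 CPM (TMM-scaled). This call was lost in 3 of 12 alternative settings. Whether T cells carry Gstp1 RNA of their own was not tested. In Paneth-like cells, which were deeper (median 5780 to 19269 UMIs), the thinned shares were 0.905%, 1.66% and 0.826% in sham and 0.565% and 0% (upper bound 1.37%) in resection. Unthinned they were 8.60%, 5.81% and 2.48% in sham and 1.69% and 1.12% in resection. Thinning removes more of a fixed amount of free RNA per droplet from deeper cells, so the background was not read from Paneth-like cells.

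Gstp2, the neighbour that shares 3' sequence and the upstream motif shown above, was also lower in both resection libraries. Its unscaled level in enterocyte-like cells was 9.52, 8.50 and 7.17 CPM in sham 1, 2 and 3 and 3.77 and 3.31 CPM in resection 1 and 2, from 37 to 95 UMIs per library. Its fold change was -1.28 ± 0.27, adjusted p = 0.426 (unadjusted p = 0.00166), and both resection libraries lay under every sham library. With Gstp1 and Gstp2 summed into 1 gene the fold change was -1.90, adjusted p = 0.281. Gsta2, which shares sequence with Gsta1, had 0 to 4 UMIs per library in enterocyte-like cells, against 323 to 3025 for Gsta1. Gm3776, which also shares sequence with Gsta1, was absent from the gene table, so its part in the Gsta1 counts cannot be seen.

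**Figure D3:**
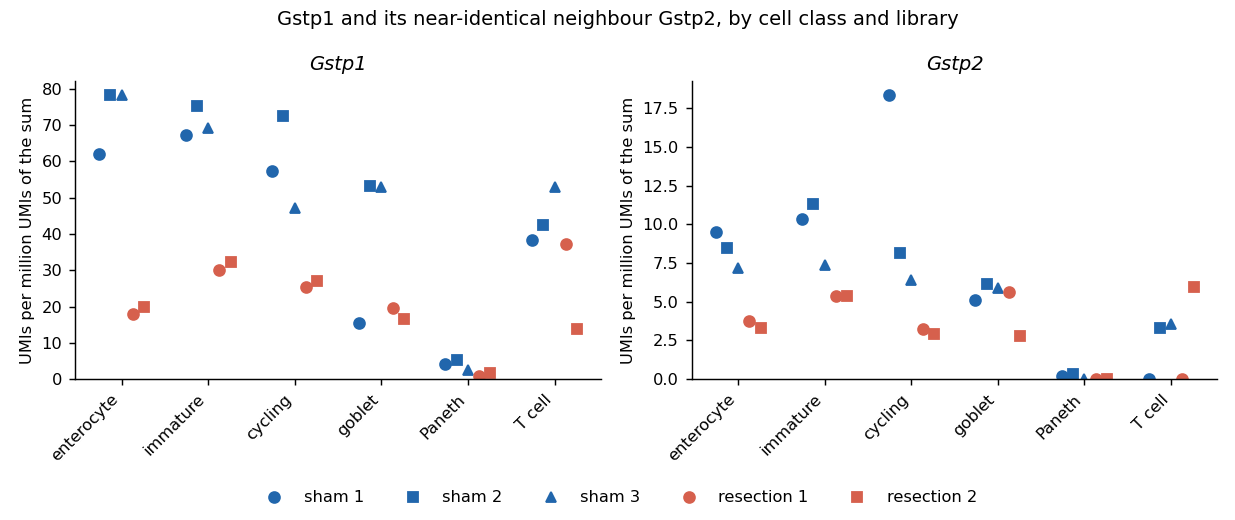
Gstp1 (left) and Gstp2 (right) in plain CPM of each library and class, without TMM, on linear axes from 0 that differ between panels. Each point is 1 library, blue for sham and red for resection. In the enterocyte, immature and cycling classes every red point lies under every blue point for both genes.

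The other 7 members did not separate the groups in enterocyte-like cells: their sham and resection ranges overlapped and their adjusted p-values were at or near 1 in edgeR. Gsta1 had the next largest difference (-1.01 ± 0.62), with 71.5, 151 and 280.1 CPM in sham 1, 2 and 3 and 47.5 and 119 CPM in resection 1 and 2, so that resection 2 stood above sham 1. Gsta4 differed by -0.71 ± 0.57, Mgst1 by -0.54 ± 0.47 and Mgst3 by -0.41 ± 0.50. The mu enzymes had positive values, Gstm1 0.51 ± 0.52 and Gstm3 0.48 ± 0.48, which became -0.27 and -0.23 without resection 2. Gstk1 was the flattest, with means of 33.7 ± 3.14 CPM in sham (SD, n = 3) and 33.7 ± 2.51 CPM in resection (SD, n = 2) and a fold change of 0.00 ± 0.22. The median fold change of the 8 members was -0.48, beside -0.02 over all tested genes. In cycling-like cells Gsta4 came nearest after Gstp1, at 16.2, 57.8 and 71.3 CPM in sham 1, 2 and 3 and 11.2 and 33.9 CPM in resection 1 and 2 (-1.21 ± 0.55, unadjusted p = 0.0537), but its groups overlapped.

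Whether the Gstp1 difference was larger in enterocyte-like than in other cells was tested directly. The log2 resection effect in enterocyte-like minus that in immature enterocyte-like cells was -0.70 ± 0.16, adjusted p = 0.0928, and minus that in cycling-like cells -0.89 ± 0.25, adjusted p = 0.26 (edgeR, class by surgery with library as a block). Neither passed. For the first contrast edgeR called 0 members and 0.0% of 10482 genes (1161 under 0.05 unadjusted, Gstp1, Gstm1 and Gstm3 among them), while DESeq2 called 151 genes and 1 member, Gstp1 (adjusted p = 0.0207). For the second, 0 members and 0.029% of 10341 genes were called (838 under 0.05 unadjusted, the same 3 members among them), and DESeq2 called 0 genes.

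Position along the villus was read within enterocyte-like cells. Each library's cells were ranked by a score, the log2 ratio of summed villus tip genes (7 genes such as Ada and Krt20) to summed genes of the lower villus (10 genes such as Reg3b and Plac8), and split into lower, middle and upper terciles. A tercile is a range of this score, not a cell type, and 247 to 890 cells per library lay within 0.25 of a boundary. In the upper against the lower tercile 5 of the 8 members were lower and none higher, beside 16.9% of 8633 tested genes that were lower (edgeR, library as a block; 0 members higher by DESeq2 or at an unadjusted p under 0.05). The log2 fold change was -1.38 ± 0.33, adjusted p = 0.00642 for Gsta1, -1.22 ± 0.24, adjusted p = 0.00179 for Gsta4 and -0.75 ± 0.11, adjusted p = 0.000386 for Mgst1. It was -0.58 ± 0.12, adjusted p = 0.00305 for Gstp1 and -0.30 ± 0.097, adjusted p = 0.0312 for Mgst3. The Mgst3 call was lost without sham 2, resection 1 or resection 2 (-0.26, -0.26 and -0.28). Gstk1, Gstm1 and Gstm3 did not pass, and Gstk1 lay between 28.7 and 41.0 CPM in all terciles and libraries.

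Gsta1 differed in this gradient between the surgery groups. In the lower tercile it was 89.2, 184 and 249 CPM in sham 1, 2 and 3 and 90.3 and 172 CPM in resection 1 and 2 (plain CPM without TMM), so that the groups overlapped. In the upper tercile it was 79.4, 68.5 and 239.8 CPM in sham 1, 2 and 3 and 14.2 and 25.0 CPM in resection 1 and 2, with both resection libraries under every sham library (the share of all genes so placed was not counted). Its drop from the lower to the upper tercile was 6.34-fold and 6.90-fold in the resection libraries and 1.12-fold, 2.68-fold and 1.04-fold in sham 1, 2 and 3. The difference between the groups was -2.08 ± 0.29, adjusted p = 0.00018 (edgeR, tercile by surgery with library as a block), with 1 member called lower beside 2.78% of 9341 genes. Leaving out each library in turn gave -2.58 to -1.72. The upper terciles did not cover the same scores: their median was -3.67 and -3.64 in resection 1 and 2 and -4.86, -5.06 and -5.00 in sham 1, 2 and 3, and the part of this in the Gsta1 result was not tested. Inside the cluster led by Ada, Gsta1 was 18.3 CPM in sham 2 (110 cells) and 22.1 CPM in resection 2 (1797 cells). In the Fabp6 cluster it was 219 and 271 CPM in sham 2 and 3 and 191 CPM in resection 2. In the Areg cluster it was 227 and 432 CPM in sham 2 and 3 and 206 CPM in resection 2. These cluster values are plain CPM without TMM and with no test.

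Gsta4 and Mgst1 pointed the same way without passing, at -1.26 ± 0.35, adjusted p = 0.0545 and -0.48 ± 0.15, adjusted p = 0.0907. Both passed without sham 2 (-1.41 and -0.61 with adjusted p of 0.0476 and 0.0344). Gstp1 did not pass (-0.42 ± 0.23, adjusted p = 0.441), and its resection libraries lay under every sham library in both outer terciles, with 71.7, 89.9 and 81.5 CPM in sham 1, 2 and 3 and 24.1 and 25.6 CPM in resection 1 and 2 in the lower and 49.5, 57.2 and 75.2 CPM in sham 1, 2 and 3 and 16.0 and 11.2 CPM in resection 1 and 2 in the upper tercile. The share of all genes with both resection libraries under every sham library was not counted within terciles. The Gsta1 contrast was added after the data had been seen.

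**Figure D4:**
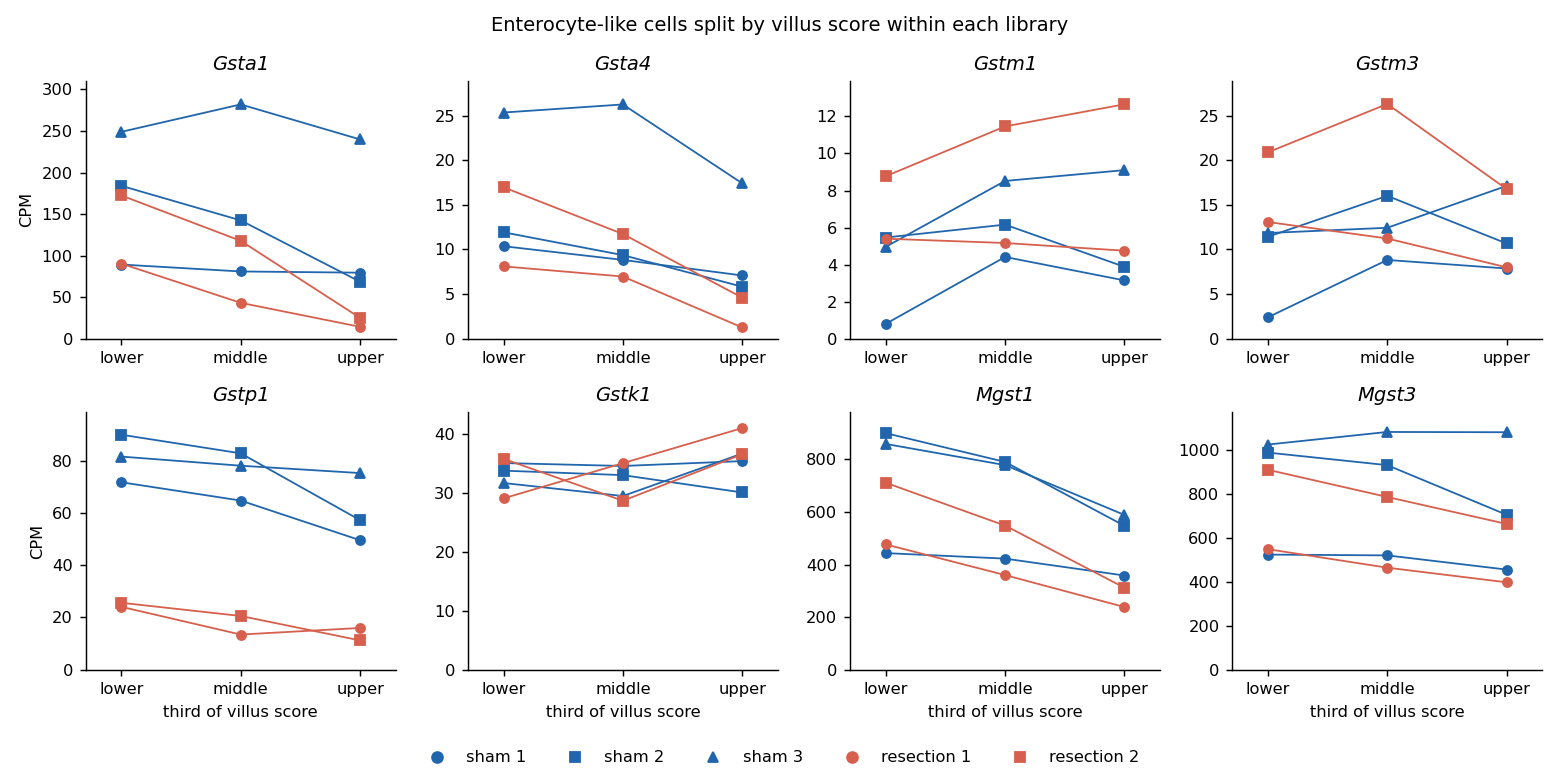
Level of each gene (plain CPM without TMM, linear axes from 0 that differ between panels) in the lower, middle and upper tercile of the villus score among enterocyte-like cells. Each line is 1 library, blue for sham and red for resection. The red Gsta1 lines drop to 14.2 and 25.0 CPM in the upper tercile, and the red Gstp1 lines stay under the blue ones throughout.

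The rest of the glutathione system was described from lists. For resection against sham in enterocyte-like cells edgeR called 0 of 14 tested other glutathione transferases (of 19 listed), 0 of 17 genes of glutathione synthesis, recycling and breakdown, 0 of 4 glutathione peroxidases, 0 of 4 conjugate exporters and 0 of 18 Nrf2 regulators and targets. DESeq2 also called 0 in each, and 2, 3, 0, 0 and 0 genes were under an unadjusted p of 0.05 in edgeR. Median log2 fold changes were -0.11, -0.01, -0.59, 0.03 and 0.02, against -0.02 over all genes. The lowest p in each list belonged to Gstp2 (above), Oplah, which opens oxoproline (1.21 ± 0.35, adjusted p = 0.689, but 1.23 with an adjusted p of 0.0311 with no filter on low counts), Prdx6, a glutathione-using peroxiredoxin (-0.57 ± 0.33, adjusted p = 1), the exporter Abcc3 (-0.23 ± 0.34, adjusted p = 1; 0.14 without sham 1) and Nqo1, a quinone reductase (-0.74 ± 0.34, adjusted p = 1). Gsr, which regenerates reduced glutathione, had 527, 379 and 347 CPM in sham 1, 2 and 3 and 271 and 223 CPM in resection 1 and 2 (-0.76 ± 0.32). It was not called, and both resection libraries lay under every sham library, as for 8.02% of all 10367 tested genes.

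Along the villus the lists are read beside 17.0% of 8633 tested genes that were higher in the upper tercile and 16.9% that were lower. Of 17 synthesis and breakdown genes 7 were higher and 3 lower in the upper tercile, among the higher Gclm, the modifier subunit of the enzyme that limits glutathione synthesis (0.99 ± 0.12, adjusted p = 9.48e-05), and Ggt1, which cleaves extracellular glutathione (0.74 ± 0.1, adjusted p = 0.000203). Of 4 peroxidases 1 was higher, Gpx4 (0.52 ± 0.09, adjusted p = 0.000889), and 3 were lower, with Gpx1 at -1.38 ± 0.18, adjusted p = 0.000199. Of 4 exporters 2 were higher, with Abcc2, the apical conjugate pump, at 0.62 ± 0.11, adjusted p = 0.00109, and Abcc3, the basolateral one, was lower (-0.65 ± 0.16, adjusted p = 0.00673). Nrf2 regulators and targets had 5 higher and 3 lower of 18. Thus Gsta1, Gsta4, Mgst1 and Gstp1 were lower in the terciles where Gclm, Ggt1 and Abcc2 were higher.

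The same lists between immature enterocyte-like and enterocyte-like cells are read beside 33.2% of 9942 genes higher and 33.7% lower. There were 6 higher and 2 lower of 13 other transferases, with Gsta3, a further alpha enzyme, at 1.63 ± 0.23, adjusted p = 5.37e-08, and 2 higher and 11 lower of 18 synthesis and breakdown genes. Ggt1 ranged from 26.4 to 113 CPM in immature and 331 to 802 CPM in enterocyte-like cells (-3.09 ± 0.15, adjusted p = 6.83e-22). Gpx1, the cytosolic peroxidase, was higher in immature cells (1.62 ± 0.14, adjusted p = 5.51e-14) and Abcc2 lower (-1.39 ± 0.12, adjusted p = 3.27e-14).

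As a description of likeness, the log2(CPM + 10) of each member was correlated with that of 4283 or 4284 other genes with a mean of at least 20 CPM over the 30 sums of 5 libraries and 6 classes, which share libraries and depth. Among the members the closest pair was Gsta1 and Mgst3 (Pearson r = 0.93), then Mgst1 and Mgst3 (0.90), while the highest r of Gstm1 with another member was 0.25 (Gstm3). The nearest genes were Myl12b, Plac8 and Mgst3 for Gsta1 (0.95, 0.95 and 0.93), of which Plac8 is in the lower villus list. For Mgst1 they were Cox6c, Cox8a and Cox7c, subunits of the respiratory chain oxidase (0.96, 0.96 and 0.95), and for Mgst3 Serpinb1a, Tax1bp3 and Dbi (0.96, 0.95 and 0.95). For Gstk1 they were Ifngr2, Cda and Plbd1 (0.91, 0.89 and 0.88) and for Gstp1 Pfn1, Smim15 and Lman2 (0.87, 0.76 and 0.73). Gsta4 had Mrpl35, Ppa2 and Idh3b (0.86, 0.84 and 0.84), Gstm3 had Tbcb, Fam96b and Tmem167 (0.85, 0.84 and 0.84), and Gstm1 had Exosc5, Creg1 and Tmem176b (0.75, 0.74 and 0.71).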

How the data were processed

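RNA was measured in droplets (10x 3' chemistry) in 5 libraries, and the deposited matrices hold raw UMI counts per gene and cell, which the authors made with Cell Ranger on mm10 (GRCm38), per the submitters' processing notes. How reads matching several genes were counted, and the annotation release, are not given in the sources used here. The 8 members and all gene lists were chosen with earlier results of these data known.

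Cells with at least 500 genes and at most 20% mitochondrial UMIs were kept. Predicted doublets (0.8% per 1000 cells) were removed, 720 in all, leaving 18235 of 19404 barcodes. Cells were clustered (2000 variable genes, 30 components, 20 neighbours, Leiden resolution 1, leidenalg 0.10.2) and named from marker lists. The naming rule was revised after clusters had been seen. Counts were summed per library and class (at least 20 cells in each library) and tested with edgeR 4.0.16 (quasi-likelihood, TMM, filterByExpr, Benjamini-Hochberg over all genes tested, threshold 0.05), with DESeq2 1.42.0 as an alternative. Classes and terciles were compared with library as a block. The CPM scales are TMM within a class for resection against sham, TMM over all classes for comparisons between them, and plain CPM without TMM for terciles and where so stated. Fold changes between terciles were fitted with TMM. Shares of cells with a UMI were taken after thinning each cell to 2000 UMIs. The scripts were checked on simulated counts. Named genes are the 8 members, for likeness the 3 genes of highest Pearson r, and of each other list up to 4 past the threshold by lowest adjusted p or otherwise the 3 lowest for resection in enterocyte-like cells. From these the text names some. A few more list genes, clusters and the tercile by surgery test were chosen after the data had been seen. Alternatives were RLE scaling, DESeq2, no filter, a library-set term, a replicate block, each library left out (a lone resection library is assumed to vary like sham), resolution 0.5, clustering scaled within libraries, doublets kept, totals without TMM, and sham 2, sham 3 and resection 2 alone.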

Additional observations from a re-analysis of the deposited data

Results flagged for a closer look

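Gsta1 was the member whose gradient along the villus score differed between the surgery groups in a test of the difference itself. The upper minus lower tercile log2 fold change was lower in resection than in sham, with a difference of -2.08 ± 0.29, adjusted p = 0.00018 (edgeR quasi-likelihood test with library as a block and Benjamini-Hochberg adjustment). The drop towards the upper tercile was seen in 5 of 5 libraries and was larger in resection 1 and 2 than in each of the sham libraries. The upper tercile held 57 and 158 Gsta1 UMIs in resection 1 and 2 and 101, 212 and 896 in sham 1, 2 and 3. Its 3' sequence is shared in part with Gsta2 and Gm3776. Sham libraries also differed among themselves, with a drop of 2.68-fold in sham 2 against 1.12-fold in sham 1 and 1.04-fold in sham 3. The upper terciles did not cover the same scores. Their median was -3.67 and -3.64 in resection 1 and 2 and -4.86, -5.06 and -5.00 in sham 1, 2 and 3. The part of this in the Gsta1 result was not tested.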

How the results depend on the processing

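Of 943 recomputed fold changes for 79 results, 882 kept their direction and their side of the threshold, 24 lost the call, 17 gained it and 20 changed sign. The causes were not tested. For resection against sham in enterocyte-like cells, members called went from 0 to 1 (Gstp1) with DESeq2, no filter, the library-set term or the replicate block. All genes called there were 72 of 10367 with DESeq2 and 207 of 15957 with no filter. With the set term they were 11 and with the block 174 of 10367. In immature enterocyte-like cells members called went from 0 to 1 with the set term or the block, beside 5 and 86 of 9765 genes. Over all epithelial cells the number of members called went from 0 to 1 with DESeq2 or the block, beside 34 and 206 of 11684 genes. With each library left out it stayed at 0 in these fits. The replicate block pairs libraries by number, which the labels do not say is a pairing. Sham 3 has no partner in it, so the surgery effect rests on the libraries numbered 1 and 2. Little is then left to measure the spread between libraries, and the adjusted p-values with the block depend on that. Deviations from the group means correlated at 0.60 for the libraries numbered 1 and 0.24 for those numbered 2, and with 2 resection libraries these values are not independent of each other. For sham 3 and resection 2, which differ in number, the correlation was 0.54 and so higher than for those numbered 2. With the block, Gstp1 was -1.87 (adjusted p = 0.000723) in enterocyte-like cells. It was -1.20 in the immature class, and Gstp2 was -1.34 (adjusted p = 0.0307). In sham 2, sham 3 and resection 2 alone Gstp1 was -2.02, adjusted p = 0.113.

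Members called in T cell-like droplets went from 5 to 3 without TMM, where 2904 of 9942 genes were called (3709 with TMM). In the tercile by surgery test they went from 1 to 3 with no filter, beside 459 of 15323 genes called. With 1 library left out they lay between 1 and 3, at 3 without sham 2, beside 337 of 9270 genes. For the class by surgery tests members called went from 0 to 1 against immature enterocyte-like cells with DESeq2 or no filter. All genes called were 151 of 10482 and 304 of 16636. Against cycling-like cells members called went from 0 to 1 with no filter, beside 132 of 16538 genes. Without resection 2, Gstm3 changed sign to -0.23 and Gstm1 to -0.27 in enterocyte-like cells, and over the libraries left out they ranged up to 0.95 and 0.998. Gstk1, at 0.00 between the groups, became 0.024 with no filter, 0.016 at resolution 0.5, 0.019 scaled within libraries, 0.035 with the set term, 0.036 without TMM, 0.034 with the block and 0.0072 in the set of sham 2, sham 3 and resection 2, and ranged from -0.079 to 0.076 with 1 library left out, positive too without sham 2 (0.042) and sham 3 (0.03). Gstp1 between immature enterocyte-like and enterocyte-like cells became 0.037 with RLE, 0.046 with DESeq2, 0.0067 at resolution 0.5 and 0.23 without TMM, and ranged from -0.16 to 0.023 with 1 library left out. Gstm1 in Paneth-like cells became -0.77 without TMM. Abcc3 between resection and sham became 0.14 without sham 1, the upper end of a range from -0.41 over the libraries left out, and 0.069 in the set of 3 libraries. At resolution 0.5 the cycling-like class had fewer than 20 cells in 3 libraries (1, 2 and 0 in sham 2, sham 3 and resection 2), so its values were not computed there, and fits in which DESeq2 gave no adjusted p were left out. Counts were low for several members, such as Paneth-like Gsta4 with 1 to 8 and Paneth-like Gstp1 with 3 to 20 UMIs per library, and Oplah passed with no filter (1.23).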

Other observations

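Outside the 8 members, Paneth-like and cycling-like cells had genes of the glutathione lists that were scarce in enterocyte-like cells. Chac1, which degrades cytosolic glutathione, ranged from 4.77 to 58.3 CPM in Paneth-like and 0.404 to 4.90 CPM in enterocyte-like cells, higher in 5 of 5 libraries (4.26 ± 0.32, adjusted p = 2.34e-14, edgeR with library as a block), and was at 0 in the T cell-like droplets of all 5 libraries. Gstm2, a further mu enzyme, ranged from 6.73 to 20.02 against 0.967 to 3.72 CPM (3.19 ± 0.35, adjusted p = 1.97e-10). On library totals without TMM these differences were 2.22 and 1.14 and still passed. Gstcd ranged from 3.77 to 14.3 CPM in cycling-like and 0.596 to 1.41 CPM in enterocyte-like cells (2.97 ± 0.28, adjusted p = 9.79e-13). Dpep1, a dipeptidase of glutathione breakdown on the cell surface, went the other way, 31.9 to 80.6 against 619 to 795 CPM (-3.70 ± 0.14, adjusted p = 6.76e-26). These genes were picked from the lists after their values were seen.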
